A study of Mus musculus with 4 samples.

Results

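Open chromatin was described at 8 mouse genes of fatty acid oxidation and its control: Cpt1a, Cpt2, Acadm, Acadl, Ehhadh, Pdk4, Angptl4 and Ppargc1a. They are 8 of 21883 protein-coding genes, and were taken as a named list. Ketone bodies are made from the acetyl-CoA that this pathway releases. None of the 8 genes encodes an enzyme of ketone body metabolism, and such genes are given further on as a list of their own. Every peak with its midpoint in the gene body or within 50 kb of it was counted, which gave 45 of 35857 peaks at 0 h and 66 of 41343 peaks at 72 h.

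The peaks come from ATAC-seq, in which the Tn5 transposase cuts and tags open DNA, so that reads pile up where chromatin is accessible. The series follows accessibility over increasing BMP exposure. Each library came from 30000 cells of organoids, epithelial structures cultured from crypts, whose source was the proximal small intestine of the mouse strain C57BL/6J. The 0 h organoids received no BMP2 and stayed in a medium with R-spondin, epidermal growth factor, the BMP antagonist Noggin, the histone deacetylase inhibitor valproic acid and the GSK3 inhibitor CHIR99021, which raises Wnt signalling. The 72 h organoids were kept for 72 h without CHIR99021, valproic acid and Noggin and with 100 ng/mL recombinant BMP2. Epidermal growth factor and R-spondin stayed in both media, and effects of BMP2 and of the medium cannot be told apart. Each time point is 1 library, so no value has a replicate error and no difference could be tested. Libraries of 24 h and 48 h were not analysed here.

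Long-chain fatty acids enter mitochondria as carnitine esters and are shortened there by beta oxidation, a cycle that opens with an acyl-CoA dehydrogenase. A second beta oxidation system works in peroxisomes. Transcription of these genes is driven in many tissues by peroxisome proliferator-activated receptors (PPARs), nuclear receptors that sense fatty acids and bind DNA as a pair with the retinoid X receptor, and by coactivators such as the product of Ppargc1a. Enterocytes absorb dietary fat and burn part of it.

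The files list peaks that passed a p-value threshold of 1e-05 and, among them, those that passed 1e-10, called strict below. A peak is shared if a 1e-05 peak of the other library overlaps it by at least 1 bp, and otherwise 0 h-only or 72 h-only. Peak height and read depth are unknown, so a class reports whether a site was called, and not a fold change. Coordinates are 1-based positions of mm10. Gene positions are from RefSeq (GRCm38.p6, the assembly that mm10 denotes), without exons, so exons and introns were not told apart.

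The annotated transcription start was under a strict peak of both libraries at 5 of the 7 genes with a start in the RefSeq promoter table, namely Cpt1a, Cpt2, Acadm, Ehhadh and Pdk4. Over all 17491 protein-coding genes in that table, 44.5% had such a start. Here and below, a start counts as under a peak if the peak overlaps its window by at least 1 bp. The window runs from 250 bases before the start to 50 after it. Acadl and Ppargc1a were the exceptions, and Angptl4 has no entry in the table. The 250 bases before the start are printed for 2 genes with a strict peak in both libraries, Cpt1a at chr19:3323051-3323300 (plus strand) and Pdk4 at chr6:5496279-5496528 (minus strand). They are printed also for Acadl at chr1:66863310-66863559 (minus strand), whose start was under a peak at 0 h and not at 72 h, and for Ppargc1a at chr5:51567726-51567975 (minus strand), whose start had no peak. The sequences run 5′ to 3′ on the gene's strand, and capitals mark the CpG dinucleotides, which are counted below. They are from RefSeq, GRCm38.p6.
Cpt1a: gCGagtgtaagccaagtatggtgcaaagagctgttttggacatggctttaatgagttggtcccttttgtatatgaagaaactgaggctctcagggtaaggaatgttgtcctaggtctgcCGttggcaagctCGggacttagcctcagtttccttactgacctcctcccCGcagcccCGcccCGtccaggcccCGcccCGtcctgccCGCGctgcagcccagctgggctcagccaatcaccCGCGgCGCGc
Pdk4: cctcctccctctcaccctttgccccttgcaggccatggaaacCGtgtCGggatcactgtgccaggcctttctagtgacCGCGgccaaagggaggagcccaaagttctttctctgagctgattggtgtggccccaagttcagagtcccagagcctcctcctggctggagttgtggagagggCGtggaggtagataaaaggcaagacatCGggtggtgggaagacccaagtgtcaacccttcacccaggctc
Acadl: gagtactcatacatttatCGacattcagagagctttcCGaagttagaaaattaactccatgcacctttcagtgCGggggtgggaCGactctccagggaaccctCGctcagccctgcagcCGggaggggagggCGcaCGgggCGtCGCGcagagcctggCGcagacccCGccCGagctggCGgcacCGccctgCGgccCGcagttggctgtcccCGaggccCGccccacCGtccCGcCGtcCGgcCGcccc
Ppargc1a: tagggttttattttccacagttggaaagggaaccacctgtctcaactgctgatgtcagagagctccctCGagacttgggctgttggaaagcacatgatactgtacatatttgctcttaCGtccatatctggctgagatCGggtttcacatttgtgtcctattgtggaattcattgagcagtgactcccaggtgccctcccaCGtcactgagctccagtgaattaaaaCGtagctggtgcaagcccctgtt

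These stretches hold 14 CpG at Cpt1a, 6 at Pdk4, 25 at Acadl and 5 at Ppargc1a. Over the 300-base window from 250 bases before to 50 after the start, Ppargc1a had 48.7% G + C and 5 CpG. The 9950 annotated starts of all genes without a peak in either library had a median of 49.0% G + C (quartiles 42.3 and 55.7) and 4 CpG (2 and 8). The 8813 starts under a strict peak in both libraries had a median of 62.7% (57.3 and 68.7) and 23 CpG (17 and 31). Acadl, with 70.3% and 34 CpG, exceeded the upper quartile of that group. Cpt1a, with 62.3% and 22 CpG, lay near its median. Acadm (62.3% and 13 CpG), Ehhadh (60.7% and 14 CpG) and Pdk4 (60.7% and 12 CpG) had G + C close to the median but fewer CpG than the lower quartile. Cpt2, with 57.3% and 17 CpG, was at the lower quartile of both.

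**Figure D1:**
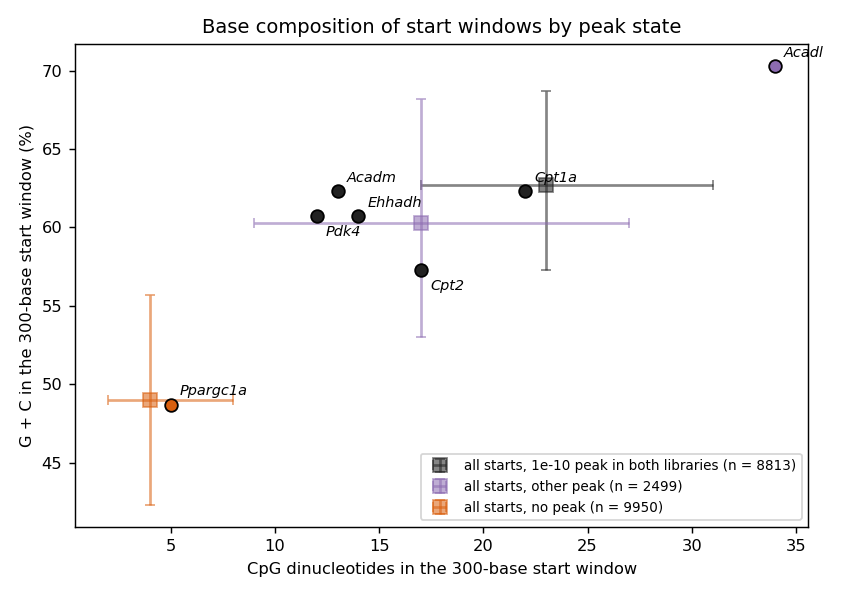
Base composition of the 300-base start windows. Each circle is 1 of the 7 genes with an annotated start, coloured by its peak state, and squares with bars give the median and quartiles of all annotated starts in each state. Ppargc1a, at 48.7% G + C and 5 CpG, sits beside the median of starts without a peak.

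The start windows were searched on both strands for the letters of several binding motifs, and the share of all 21262 annotated starts with a match is given beside each count. The PPAR-type element DR1, written here as AGGTCA repeated after a spacer of 1 base, matched none of the 7 windows (0.047% of all starts), and nor did its relaxed form GGNCANNGGNCA (2.13%). The letters of HNF4 (CAAAGTCCA, 0.452%), of estrogen-related receptors (TCAAGGTCA, 0.334%, which ends in the half-site AGGTCA), of CREB (TGACGTCA, 2.23%) and of FOXA (TGTTTAC, 3.01%) matched none either. The SMAD letters GTCTG matched 5 of 7, against 48.4% of all starts, and the GATA letters AGATAA matched 1, Pdk4, against 9.65%. In the Pdk4 sequence above the GATA match starts 61 bases before the start. Motifs chosen after the sequences were seen were the GC box GGGCGG (4 of 7, against 46.2%), CCAAT (3 of 7, against 38.2%), TATAAA (0 of 7, against 12.6%) and the single half-site AGGTCA (2 of 7, Cpt1a and Acadm, against 14.7%). In Cpt1a the half-site lies on the opposite strand, 94 bases before the start. Such matches describe letters, not binding.

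The carnitine shuttle genes had strict start peaks in both libraries and weak or flanking peaks called at 72 h only. Cpt1a encodes the outer-membrane carnitine palmitoyltransferase that commits long-chain fatty acids to mitochondrial oxidation, and Cpt2 the inner-membrane enzyme that reverses the transfer. Cpt1a (chr19:3322326-3385735) had 9 peaks at 0 h and 11 at 72 h, of which 4 were strict in each library. The strict start peak was at chr19:3322988-3323588 at 0 h, with its midpoint at position -13 from the start, and at chr19:3322993-3323593 at 72 h, at position -8. A second strict site lay inside the gene in both libraries, 2.27 kb after the start at 0 h and 2.30 kb after it at 72 h. A weak site 10.9 kb after the start was also shared.

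Cpt1a had 3 72 h-only peaks, all below the strict threshold. They were centred at -27.9, -15.6 and -0.798 kb from the start. The last of them, at chr19:3322203-3322803, lies where the peak numbering of the 0 h library skips 1 number, so that a 0 h peak in that stretch would not be seen here. No other 72 h-only or 0 h-only peak at the 8 genes lies in such a gap. The single 0 h-only peak in the Cpt1a window was weak, lay 33.7 kb beyond the gene and was nearest to Gal. Shared sites in the Cpt1a window also include the end of Tesmin and of Ighmbp2, neighbouring genes.

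Cpt2 (chr4:107903982-107923589) had 4 peaks at 0 h and 7 at 72 h, 3 and 4 of them strict. Its start was covered by chr4:107923267-107923867 at 0 h and chr4:107923245-107923845 at 72 h, with midpoints 22 and 44 bases after the start. The 72 h library added a weak peak inside the gene, 2.2 kb after the start, and a strict 72 h-only peak at chr4:107899043-107899643. The latter lay 4.64 kb outside Cpt2 but only 1.54 kb from the end of Czib, and no 0 h peak came within 8.57 kb of it. The remaining Cpt2 window peaks lay at Magoh and Czib, near whose ends both libraries had strict peaks.

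The acyl-CoA dehydrogenase genes differed between libraries at their starts, within regions called in both. Acadm and Acadl encode the dehydrogenases for medium-chain and long-chain acyl-CoA. Acadm (chr3:153922353-153944643) had 2 peaks at 0 h and 3 at 72 h, all strict and all shared. The 0 h start peak at chr3:153944341-153944941 and its 72 h counterpart at chr3:153944330-153944930 had midpoints 2 and 13 bases after the start. At 72 h there was a further strict peak at chr3:153943959-153944559, centred 0.384 kb after the start and 382 bp from the nearest 0 h midpoint. It overlapped the 0 h peak by 219 bp and is shared for that reason. With at least 50% overlap required, it was 72 h-only and Acadm joined the genes with a strict 72 h-only peak.

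Acadl (chr1:66830839-66863309) had its extra start peak at 0 h, where Acadm had one at 72 h. At 0 h a strict peak at chr1:66863059-66863659 was centred 50 bases before the start, beside another strict peak centred 0.522 kb after it. At 72 h the downstream peak was called, 0.527 kb after the start, and the start window had no peak, the nearest ending 177 bp away. With peaks of fixed width, this distance does not show whether the start itself had lost accessibility. Among 9578 annotated starts under a strict 0 h peak, 2.67% had no 72 h peak over the window, and among 9345 under a strict 72 h peak, 2.09% had no 0 h peak. The upstream 0 h peak overlapped a 72 h peak by 24 bp and so counts as shared.

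Farther from Acadl each library had 1 strict peak of its own on the same side of the gene. The 72 h-only peak at chr1:66880108-66880708 was centred 17.1 kb before the start and the 0 h-only peak at chr1:66884192-66884792 was centred 21.2 kb before it. Their facing edges were 3.48 kb apart, and both peaks were nearest to Acadl. A weak 72 h-only peak lay 32.7 kb beyond the other end of the gene, nearest to Kansl1l. In all, Acadl had 7 peaks at 0 h, 6 strict, and 8 at 72 h, 4 strict.

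At Ehhadh, the 72 h-only calls lay around the start. Ehhadh encodes the peroxisomal bifunctional enzyme, with hydratase and dehydrogenase activity, and is a classical PPAR alpha target. The gene (chr16:21761285-21787834) had 7 peaks at 0 h, 5 strict, and 8 at 72 h, 6 strict. The start peak, at chr16:21787566-21788166 at 0 h and chr16:21787569-21788169 at 72 h, was centred 32 and 35 bases before the start and strict in both. Around it the 72 h library had 3 72 h-only peaks. One, at chr16:21788480-21789080, was strict, was centred 946 bases before the start and began 313 bp from the 0 h peak. Both edges follow from the fixed peak width, and whether the sites are separate was not tested. The other 72 h-only peaks were weak and lay inside the gene, 2.54 and 6.32 kb after the start.

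A strict site 6.54 kb before the Ehhadh start at 0 h was called at 6.53 kb at 72 h. Both 0 h-only peaks in the window lay far upstream, 42044 and 44103 bp before the start, and nearest to Map3k13. The second of them, chr16:21831637-21832237, was strict. A shared site 38.1 kb before the start passed the strict threshold at 72 h and not at 0 h.

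Pdk4 had the fewest peaks, level with Acadm at 0 h, and showed no difference in calling within 50 kb. It encodes a kinase that inactivates pyruvate dehydrogenase and so spares glucose when fat is burned. The gene (chr6:5483351-5496278) had 2 peaks in each library, all strict and shared. One lay at the start, at chr6:5496237-5496837 at 0 h and chr6:5496221-5496821 at 72 h, centred 259 and 243 bases before it. The other, at chr6:5509656-5510256 at 0 h and chr6:5509644-5510244 at 72 h, was centred 13.7 kb before the start. Of the 18252 protein-coding genes with a peak in such a window, 12.9% had fewer peaks than Pdk4 at 72 h.

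Angptl4 had a single 72 h-only peak, in its flank. It encodes a secreted inhibitor of lipoprotein lipase and is a PPAR target in several tissues. The gene (chr17:33774900-33781575) had 8 peaks at 0 h and 10 at 72 h, with 8 strict in each library. A strict peak lay at one gene end in both, at chr17:33781028-33781628 at 0 h and chr17:33780968-33781568 at 72 h. At 72 h a weak second peak lay across that end, centred 368 bp from the 0 h midpoint. The 72 h-only peak at chr17:33788656-33789256 was strict, lay 7.38 kb outside the gene and was nearest to Angptl4, with the closest 0 h peak 7.03 kb away. The other shared peaks were nearest to Rab11b, Kank3 and Ndufa7. One of these, at Ndufa7, was strict at 0 h and weak at 72 h.

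Ppargc1a differed most between the libraries, with 6 peaks at 0 h and 17 at 72 h. It encodes PGC-1 alpha, a coactivator of PPARs and of mitochondrial biogenesis. The gene is long (chr5:51454249-52115853, 662 kb), which makes its window the largest of the 8. All 6 0 h peaks were shared, and 11 of the 17 72 h peaks were 72 h-only (64.7%, exact Clopper-Pearson 95% interval 38.3 to 85.8). The median share over genes longer than 500 kb with a 72 h peak was 42.9%, within that interval. Of these 11 peaks, 7 lay inside the gene and 4 outside it. A single one was strict, at chr5:51446550-51447150, 7.40 kb outside the gene and 39.6 kb from the nearest 0 h peak.

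The Ppargc1a start in the promoter table had no peak in either library, and the nearest peak began 13.4 kb away in both. Of all genes in that table, 44.1% had no peak at any start. The far boundary of the gene, for which the table gives no start, was under a strict peak in both libraries, at chr5:52115630-52116230 at 0 h and chr5:52115666-52116266 at 72 h. Another strict site of both libraries lay inside the gene, 13.8 kb after the table's start. At 2 further shared sites inside the gene the 0 h peak was weak and the 72 h peak strict. These were chr5:51591431-51592031 at 0 h with chr5:51591373-51591973 at 72 h, and chr5:52064889-52065489 at 0 h with chr5:52064870-52065470 at 72 h.

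The 186 protein-coding genes over 500 kb with a peak had medians of 3 peaks at 0 h, 3.5 at 72 h and 1 72 h-only peak, and 9 of them, Ppargc1a included, had at least 11 72 h-only peaks. Per 100 kb of window, Ppargc1a had 0.788 peaks at 0 h and 2.23 at 72 h, whereas Angptl4 had 7.5 and 9.37.

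**Figure D2:**
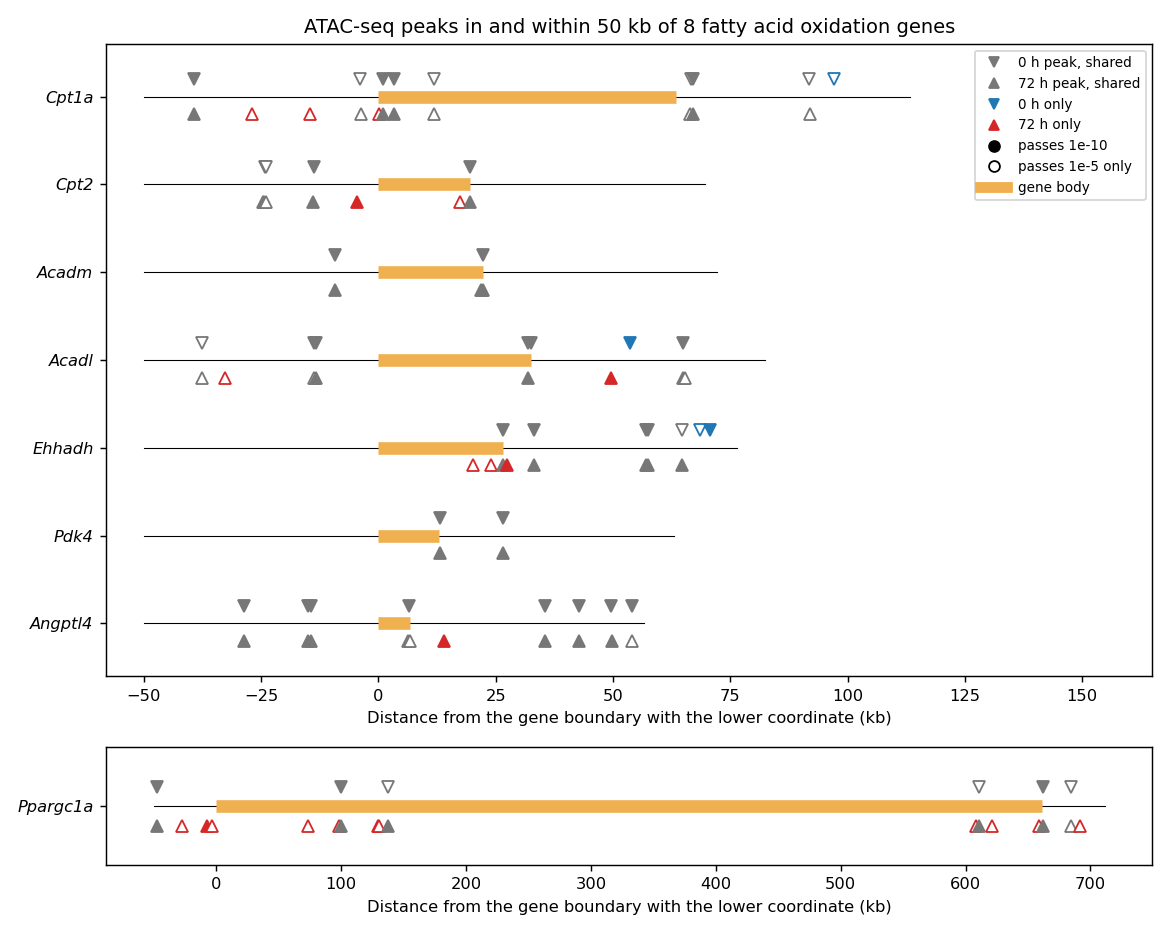
Peak midpoints (triangles) along each gene and 50 kb to either side, by distance from the gene boundary with the lower coordinate, with 0 h above and 72 h below each line. Filled triangles passed 1e-10, and red or blue marks a peak called in 1 library only. The red triangles of Ppargc1a are nearly all open, and the single filled red ones at Cpt2, Acadl, Ehhadh, Angptl4 and Ppargc1a all lie outside the orange gene bodies.

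Over the 8 genes, 22 of 66 72 h peaks were 72 h-only (33.3%, exact Clopper-Pearson 95% interval 22.2 to 46.0, counting error only). Over all 37721 72 h peaks in a gene window the share was 29.0%, so the 8 genes were near the background. Without Ppargc1a the count was 11 of 49 (22.4%, 11.8 to 36.6). At 0 h, 4 of 45 peaks were 0 h-only (8.89%, 2.48 to 21.2), against 19.7% of all such 0 h peaks. The 0 h-only peaks lay at Cpt1a, Acadl and Ehhadh, 21.2 to 44.1 kb outside the genes, and 1 of the 4 was nearest to a gene of the 8. Peaks at the 8 genes were 1.47 times as many at 72 h as at 0 h, and 1.26 times without Ppargc1a, beside 1.15 times for all peaks. By gene, 6 of 8 had a 72 h-only peak of either threshold, against 64.4% of genes, and 3 of 8 a 0 h-only peak, against 52.3%. At the strict threshold the ratio was 1.12 for the 8 genes (33 and 37 peaks) and 1.26 for all peaks.

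Strict 72 h-only peaks occurred at 5 of the 8 genes, Cpt2, Acadl, Ehhadh, Angptl4 and Ppargc1a, with 1 each. Among the 18252 genes with a peak in the window, 33.3% had at least 1. The 5 genes had 7 to 17 peaks at 72 h, and Cpt1a, Acadm and Pdk4 had 11, 3 and 2. The mean over genes with a peak was 5.89, and more peaks give more chances of such a call. Counted by peak, 5 of 37 strict 72 h peaks at the 8 genes were 72 h-only, a share below the 3921 of 23156 in gene windows. At 0 h, 2 of 33 strict peaks were 0 h-only, near the share of 1112 of 18722 in gene windows. Strict 0 h-only peaks occurred at 2 of 8, Acadl and Ehhadh, against 13.0%. All of these peaks are also in the authors' deposited lists of enriched regions. Those lists hold 1276 regions at 0 h and 4534 at 72 h, beside 1275 and 4535 strict peaks of 1 library only here. With near-equal numbers drawn from the same calls, the match is no separate evidence. None of the 5 strict 72 h-only peaks lay in the body of its gene, and 11 of the 17 weak ones did, 7 of them in the long body of Ppargc1a (4 of 7 without it). Over all pairs of a gene and a 72 h-only peak in its window, 26.3% of 8933 strict and 25.8% of 16548 weak peaks lay in the body, and no test was made. If peaks were given only to their nearest gene, 4 of 8 genes kept a strict 72 h-only peak, against 18.6% of 15253 genes. Cpt2 was the gene lost, since its peak is nearer to Czib. A strict 0 h-only peak was then left at 1 gene, Acadl, against 6.66%. Within 10 kb the counts were 4 of 8 at 72 h, against 17.8%, and 0 of 8 at 0 h, against 6.52%. With a gap of 1 kb to any 0 h peak required, Ehhadh was lost and 4 genes were left.

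**Figure D3:**
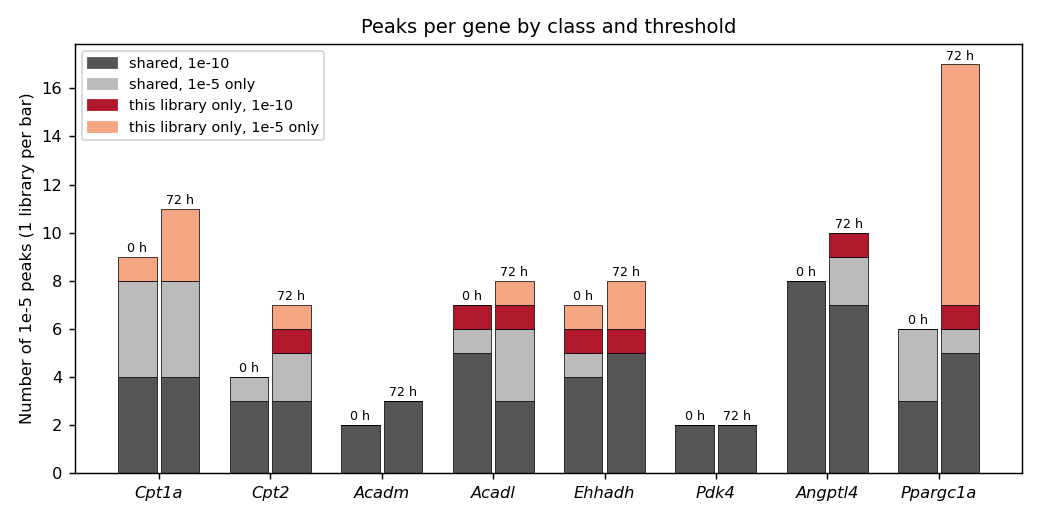
Number of 1e-05 peaks per gene and library, 1 library per bar, split into shared peaks (grey) and peaks of that library only (red and orange) and by threshold. Pdk4 has 2 shared strict peaks in each library, and Ppargc1a has 6 peaks at 0 h and 17 at 72 h, of which 10 are weak 72 h-only peaks.

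Sites called in both libraries mostly passed the strict threshold in both. Merging overlapping peaks of the libraries gave 35 shared sites at the 8 genes, of which 26 were strict in both (74.3%, 56.7 to 87.5), against 64.4% of 22246 shared sites in gene windows. At 3 sites, 2 in Ppargc1a and 1 upstream of Ehhadh, the threshold was passed at 72 h and not at 0 h (8.57%, against 13.6%). At 1 site, in the Angptl4 window, it was passed at 0 h and not at 72 h (2.86%, against 8.43%). The remaining 5 were weak in both. Midpoints of shared 72 h peaks lay a median of 23 bp from the nearest 0 h midpoint, against 30 bp over all shared 72 h peaks. At 7 of 44 the distance was over 100 bp (15.9%, against 17.4%), among them the extra summits at the starts or ends of Acadm and Angptl4.

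The wider pathway was examined in 7 lists of 81 further genes, of which 79 had a peak in the window. Of these, 43 (54.4%) had a strict 72 h-only peak, against 33.3% of all genes with a peak, and 8 had a strict 0 h-only peak, against 13.0%. Those 79 genes had a mean of 6.72 peaks at 0 h and 8.38 at 72 h, compared with 5.35 and 5.89 over all genes with a peak, and a gene with more peaks has more chances of such a call. A peak counts for every gene whose window holds it, so some peaks of the genes named below are nearest to a neighbouring gene. These include peaks counted for Hadh, Acaa2, Eci2, Etfa, Acat1, Slc16a6, Ppargc1b, Creb3l3, Fabp1, Fabp2 and Slc25a42, whose neighbours are not named. By nearest gene the count was 27 of 74 (36.5%, against 18.6%), and within 10 kb it was 25 of 77 (32.5%, against 17.8%). The lists were drawn up with earlier results of these data known, and no test was made.

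Mitochondrial beta oxidation genes had a strict 72 h-only peak at 9 of 15, against 33.3% of all genes with a peak. Hadh, the short-chain hydroxyacyl-CoA dehydrogenase, had 4 such peaks, with 5 peaks in all at 0 h and 9 at 72 h. Acaa2 (the thiolase of the last step), Echs1 (the short-chain hydratase), Eci2 (an enoyl-CoA isomerase) and Etfa (a subunit of the electron acceptor of the dehydrogenases) had 2 each. Acaa2 also had 2 strict 0 h-only peaks, and Acads, the short-chain dehydrogenase, had 1 of each kind. The Echs1 peaks were nearest to Prap1 and Paox, and both Acads peaks to Sppl3. A single strict peak at chr5:30170182-30170782, inside Hadhb, accounts for the calls of both Hadha and Hadhb, which encode the trifunctional protein and were singled out after their values were seen.

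In the carnitine shuttle list 2 of 5 genes had a strict 72 h-only peak, Cpt1b and Slc22a5, with 1 each, names chosen after their values were seen. The share over all genes with a peak was 33.3%. The Cpt1b peak was nearest to Odf3b. Peroxisomal oxidation genes had a strict 72 h-only peak at 7 of 15, against the same 33.3%. Acaa1b, a peroxisomal thiolase, had 2, and Acox3, an acyl-CoA oxidase, had 1 of each kind. Both Acaa1b peaks were nearest to Slc22a14, and those of Acox3 to Trmt44 and Htra3. Ketone body genes had a strict 72 h-only peak at 3 of 7, also against 33.3%. Oxct1, which activates ketone bodies for use as fuel, had 4, with 4 peaks at 0 h and 10 at 72 h. Acat1, the mitochondrial acetoacetyl-CoA thiolase, and Slc16a6, a transporter, had 2 each. None of the 7 had a strict 0 h-only peak, which 13.0% of all genes with a peak had.

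Regulators had a strict 72 h-only peak at 8 of 14, against 33.3% of all genes with a peak. Ppara, the receptor that drives fatty acid oxidation, had 10 peaks at 0 h and 15 at 72 h, with 4 strict 72 h-only peaks, all inside the gene. Ppargc1b, the paralogue of Ppargc1a, had 5, with 8 peaks at 0 h and 15 at 72 h. Rxra (the shared PPAR partner), Lpin2 (a phosphatidate phosphatase) and Creb3l3 (a fasting-responsive transcription factor) had 2 each. Strict 0 h-only peaks were found at Pparg (1, beside 1 at 72 h), Lpin1 and Prkaa2 (1 each), the last a catalytic subunit of the AMP-activated kinase. The Prkaa2 peak was nearest to Plpp3.

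Fuel switch enzymes had a strict 72 h-only peak at 4 of 6, against 33.3% of all genes with a peak. Acaca, the acetyl-CoA carboxylase of fatty acid synthesis, had 3, and Acacb, whose product malonyl-CoA inhibits the Cpt1a enzyme, had 1 of each kind. Other PPAR alpha targets had one at 10 of 17, against the same 33.3%. Fabp1 and Fabp2, the fatty acid binding proteins of enterocytes, and Acot12, an acyl-CoA thioesterase, had 3 each. Fabp1 had 0 peaks at 0 h and 7 at 72 h. Plin2 (a lipid droplet protein) and Slc25a42 (a mitochondrial coenzyme A carrier) had 2 each. Fgf21, a fasting hormone, had 3 strict 0 h-only peaks and 1 strict 72 h-only peak. One of the 3 was nearest to Fgf21 itself, at chr7:45616170-45616770, 0.980 kb outside the gene.

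**Figure D4:**
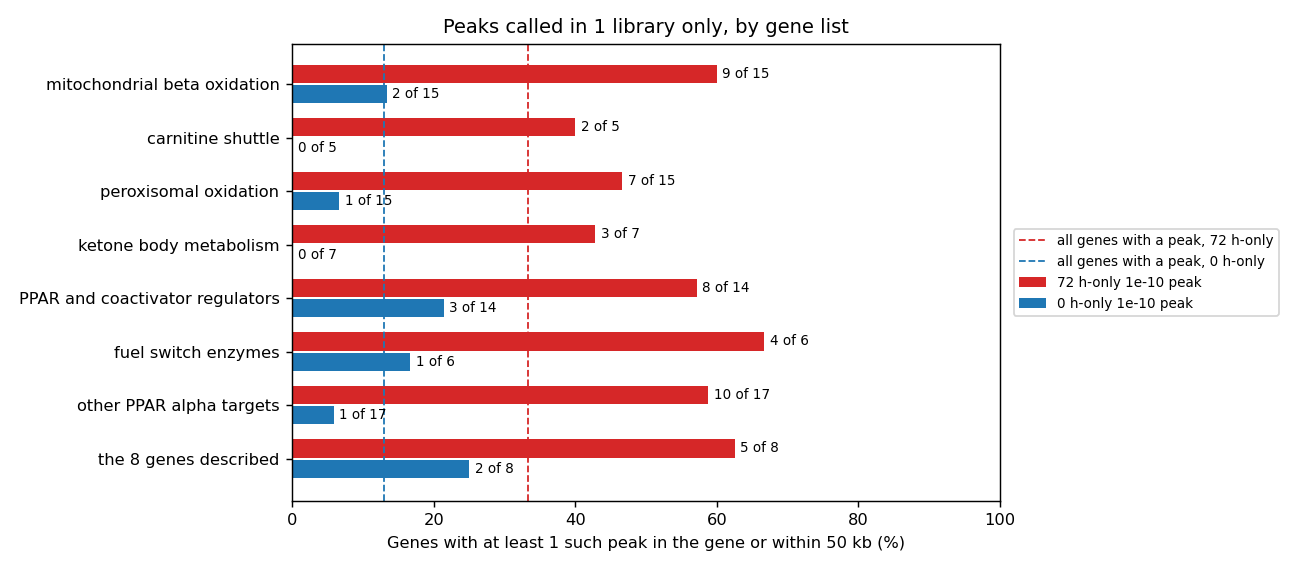
Share of genes with at least 1 strict peak called in 1 library only, for the 8 genes described and 7 pathway lists, with counts of genes beside the bars. Dashed lines give the share over all 18252 genes with a peak, 33.3% for 72 h-only and 13.0% for 0 h-only peaks.

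Markers were read as strict peaks within 1 kb of a gene end in both libraries. Of all 21883 protein-coding genes, those without a peak in the window included, 43.3% had one. All 8 genes described had one, as did 58 of the 81 genes in the pathway lists and 8 of 9 epithelial markers. None of 5 immune, 4 endothelial, 6 fibroblast and muscle and 3 hepatocyte markers did, and 1 of 4 markers of brown fat and muscle did. Of 9 enterocyte markers, 2 had one, Apoa1 and Slc5a1. A strict 72 h-only peak lay in the window of all 9 enterocyte markers, with 29 peaks at 0 h and 71 at 72 h in all, and Fabp1 and Fabp2 are in this list and in that of PPAR alpha targets. Among markers with a peak, the same count was 4 of 9 for epithelium, 2 of 4 for endothelium, 1 of 4 for immune cells, 1 of 6 for fibroblasts and muscle, 0 of 1 for hepatocytes and 1 of 4 for brown fat and muscle. Over all 18252 genes with a peak, 33.3% had a strict 72 h-only peak. In bulk organoids, more cells with a site open and more opening per cell cannot be told apart, and the part of enterocyte share in the calls above was not tested.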

How the data were processed

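ATAC-seq libraries of mouse intestinal organoids at 0 h and 72 h of BMP2 were compared, 1 library each. The tools named in the submitters' processing notes are MACS2 (version 2.2.7.1), bedtools (2.26.0), Bowtie2 (2.4.1), cutadapt (1.9.1), deepTools (3.5.4), Picard (2.18.27) and SAMtools (1.3.1), with mm10 as the genome build. Whether cut sites were shifted for Tn5 or duplicates removed is not given in the sources used here. Lists as deposited hold chromosome, start, end and a peak name, with no score, p-value, fold or count. The authors deposited 1 list per library and threshold, and the median peak spans 601 bp. Read depth is unknown. The numbering of the lists leaves 1427 numbers at 0 h and 740 at 72 h without a row, and 1 of each lies in the Cpt1a window.

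Peaks were assigned to RefSeq genes of GRCm38.p6 and classed by overlap. Motifs and base composition were read from RefSeq start windows. Classing was tested on simulated peaks. Scripts ran in Python 3.11.15 with SciPy 1.17.1, pandas 2.3.3, matplotlib 3.10.9 and numpy 2.4.6. Intervals cover counting error only. With 1 library per time point no test was possible. All 8 genes were named, and pathway genes with at least 2 strict 72 h-only or at least 1 strict 0 h-only peak, plus Ppara. The genes and lists were chosen with earlier results of these data known. Other windows, assignments, overlaps and thresholds were tried, as were the counts without Ppargc1a and added motifs, both chosen after seeing the data.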

Additional observations from a re-analysis of the deposited data

How the results depend on the processing

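No paired analysis was possible because each time point is 1 library. Of the counts recomputed under other settings, 49 stayed within 1.5 times the reported one and 36 moved. The authors' enriched lists were among these settings, and nearly equal in number the strict peaks of 1 library only. A smaller window, or giving each peak to 1 gene, leaves fewer peaks to count by construction. A 100 kb window can only add peaks, and 50% overlap or 1e-05 calls can only add peaks of 1 library only. Comparing 1e-10 peaks alone leaves fewer peaks to count and fewer to overlap. Leaving out Ppargc1a can only lower a count. For the remaining changes the cause was not tested. With a 10 kb window the 8 genes had 19 peaks at 0 h and 36 at 72 h, 0 of them 0 h-only, 13 shared sites strict in both libraries and 0 strict at 0 h only. 0 genes then had a strict 0 h-only peak, and the pathway lists had 25 genes with a strict 72 h-only and 4 with a strict 0 h-only peak. In gene bodies alone there were 10 and 22 peaks, 0 of them 0 h-only and 11 72 h-only, 7 shared sites strict in both and 0 strict at 0 h only. No strict peak of 1 library was left at the 8 genes (0 and 0), and the lists had 19 and 3 genes. By nearest gene there were 19 and 37 peaks, 1 of them 0 h-only, 13 shared sites strict in both, 0 strict at 0 h only, 1 gene with a strict 0 h-only peak, and 27 and 5 list genes. With a 100 kb window 5 shared sites were strict at 72 h only and 2 at 0 h only. Pdk4 then also had a strict 72 h-only peak, which made 6 of the 8 genes. With 50% overlap required, 2 shared sites were strict at 0 h only and 14 list genes had a strict 0 h-only peak. With 1e-10 peaks of both libraries there were 37 peaks at 72 h, 8 of them 72 h-only, and 33 list genes had a 0 h-only peak. With 1e-05 peaks 69 and 36 list genes had a 72 h-only and a 0 h-only peak. Without Ppargc1a, an alternative added after seeing the data, 11 peaks were 72 h-only. With no read counts, a peak just under a threshold cannot be told apart from no signal.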
